A study of Mus musculus with 10 samples.

Results

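The genes described here are the photoreceptor and phototransduction genes, 34 mouse genes whose products make up, regulate or maintain the light response of rods and cones. They were taken by name: a gene counted as measured where its symbol stood alone on at least 1 probe set of the array, and the brightest such probe set over all 10 arrays was used. Of the 34 genes, 32 were measured, out of 12393 genes measured in all. Nr2e3 and Rdh8 were not analysed here. From textbook knowledge, 9 of the measured genes were placed as rod genes, 6 as cone genes, 14 as genes of rods and cones alike, and 3 (Gnb1, Pde6d and Unc119) as genes not specific to the retina.

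In a rod or cone, an opsin activated by light turns on the G protein transducin, transducin releases the phosphodiesterase PDE6 from its inhibitory subunits, the level of cyclic GMP falls and cyclic nucleotide-gated channels close. Arrestin and an opsin kinase end the response, and guanylate cyclase with its calcium-sensing activator proteins restores cyclic GMP. Rods and cones use separate genes for most of these steps, under transcription factors such as Crx, active in both, and Nrl, which specifies rods. Photoreceptors lie in the outer retina, which borders the optic nerve head, whereas the nerve head itself is made of ganglion cell axons, astrocytes, other glia and vessels.

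The samples were optic nerve heads of male C57Bl/6 mice aged 6 to 8 weeks, with no transgene or deletion named in the labels. In the elevated pressure group, the right eye of each mouse was cannulated in the anterior chamber and held at 30 mmHg for 1 h, and the nerve head was taken 3 days later. In the control group, the nerve head came from the unoperated left eye at the same time. Each group had 5 arrays from 10 mice in all, and every array carried RNA from a pool of 2 nerve heads, so side of the body, cannulation and pressure cannot be told apart, nor can mice within a pool. By these counts both groups drew on the same 10 mice, and the fits below took all 10 arrays as independent. The pools are labelled as biological replicates, and nothing in the labels says whether control and elevated pools of equal number came from the same mice.

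The deposited values are probe set intensities, called signal below, and 5 arrays a group limit the precision of each comparison. The median signal of an array lay between 414 and 475. Elevated array 1 stood apart: its mean correlation with the other 9 arrays over all genes was 0.974, against 0.986 to 0.989 for the others, and its Gapdh signal at the 3' end was 2.07 times that at the 5' end, a measure of RNA length, against 1.53 to 1.73 times on the others. The markers of the labelled tissue were present on all arrays, with the summed signal of 9 astrocyte genes between 55359 and 63496 and the signal of Mbp, a myelin protein gene, between 13490.3 and 15433.

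Rod genes differed between pools of the same group by up to 39.6-fold, and most of them rose and fell together. Control pools 2 and 3 held the least signal for most of them, and pool 4 of each group held the most. Of the 31 other measured members, 11 followed the rod arrestin gene Sag over the 10 arrays at an adjusted p under 0.05, all in the same direction as Sag, beside 0.129% of all genes. These 11 were 5 rod genes and 6 genes of rods and cones alike, and none of the 6 cone genes or of the 3 genes not specific to the retina was among them. In pooled tissue, fewer photoreceptors and less RNA per photoreceptor cannot be told apart.

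**Figure D1:**
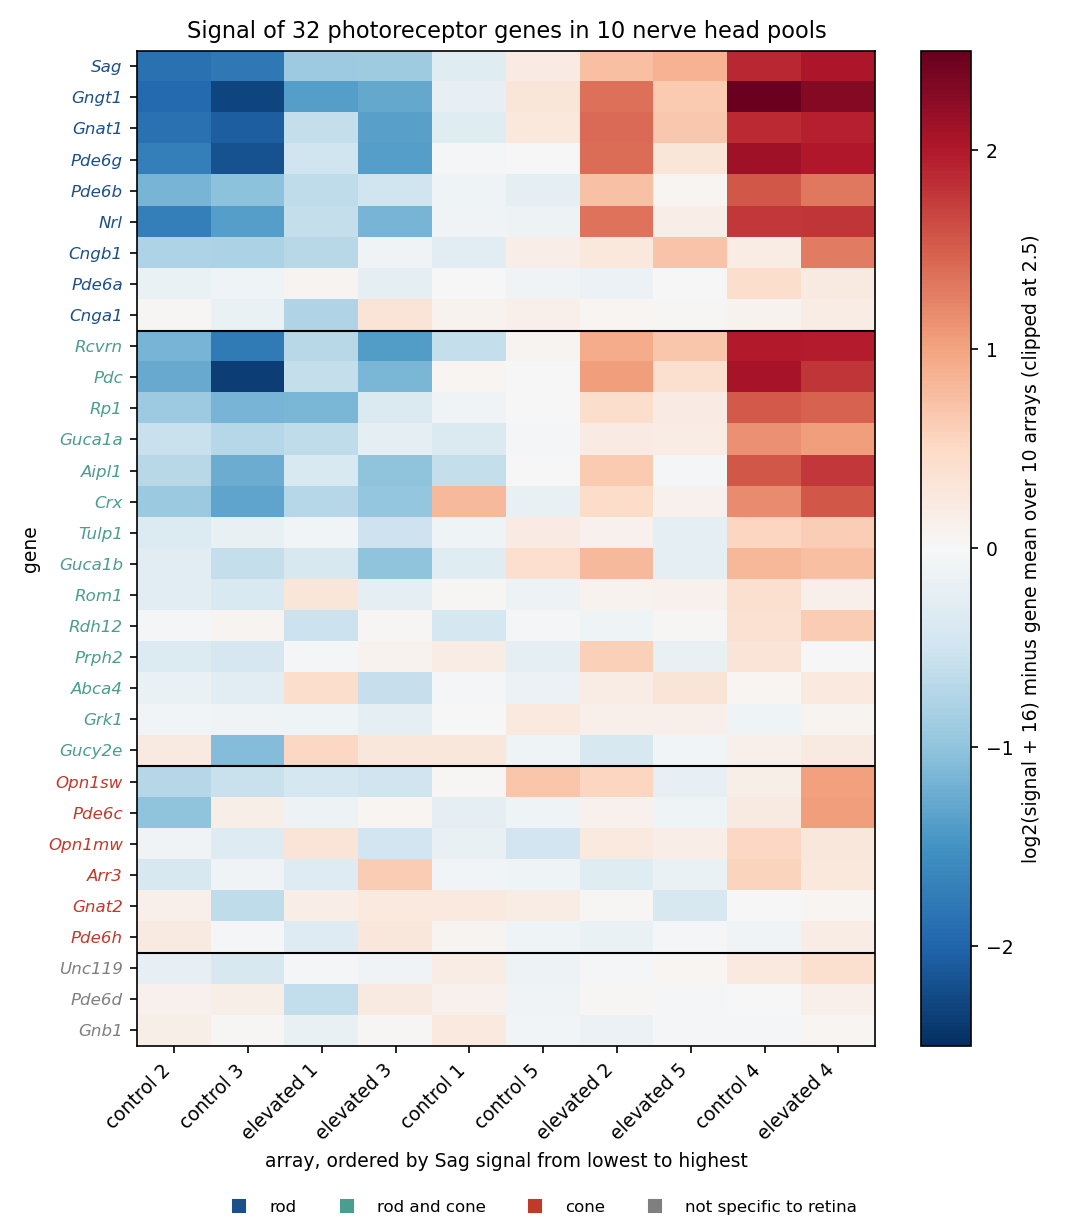
Each row is a gene and each column an array, ordered from the lowest Sag signal (200.3, control 2) to the highest (3200.2, elevated 4). The colour gives log2(signal + 16) after subtraction of that gene's 10-array mean. Sag, Gngt1, Gnat1, Pde6g, Pde6b and Nrl and the upper genes of the rod and cone block pass from blue to red across the arrays, whereas Pde6a and Cnga1 and most cone genes change little in colour.

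Sag encodes the arrestin that binds activated rod opsin and ends its signal. Its signal on control arrays 1 to 5 was 622, 200.3, 213, 2886 and 894. On elevated arrays 1 to 5 it was 402, 1315, 412, 3200.2 and 1427. The groups overlapped over nearly their whole range, because each held pools with little Sag and 1 pool with a great deal, and the highest array stood 15.98-fold above the lowest.

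Gnat1, the alpha subunit of rod transducin, gave 569.8, 181, 157, 2604 and 851 in the control pools. The elevated pools gave 461, 1895, 264, 2761 and 1136. The order was nearly that of Sag, with pool 4 of both groups at the top and control pools 2 and 3 at the bottom. Gngt1, the gamma subunit that goes with it, gave 197, 48.0, 33.7, 1334 and 286 in the control pools and 78.4, 623, 84.2, 1180.3 and 369 in the elevated pools. Its range of 39.6-fold was the widest among the 32 genes, and the groups again overlapped.

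The rod phosphodiesterase is built from a catalytic alpha subunit (Pde6a), a catalytic beta subunit (Pde6b) and an inhibitory gamma subunit (Pde6g). Pde6g signals were 157, 38.4, 23.2, 762 and 161 in the control pools and 109, 449, 52.3, 697 and 204 in the elevated pools. For Pde6b the control pools read 117, 48.6, 55.0, 404 and 106, and the elevated pools 76.8, 221, 85.7, 342 and 133. Both genes were lowest in control pools 2 and 3 and highest in control pool 4, with elevated pool 4 next. Pde6a stayed between 10.2 and 25.5 on all arrays, and with no detection call in the deposited table it is not known whether such signals lie above background.

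Nrl, the transcription factor that sets rod identity, read 116, 26.9, 38.3, 467 and 112 in the control pools and 76.8, 343, 47.3, 470.4 and 142 in the elevated pools. The same pools were high and low as for the transducin genes, over a 17.5-fold range. The rod channel has 2 kinds of subunit, and they behaved differently. Cngb1, the beta subunit, read 36.1, 20.8, 20.3, 55.7 and 54.9 in the control pools and 22.8, 59.5, 42.8, 138 and 87.6 in the elevated pools, in an order like that of Sag except that control pool 4 lay below 3 elevated pools. Cnga1, the alpha subunit, stayed between 104 and 153 on 9 arrays and read 64.03 on elevated array 1.

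To test which genes of the whole table followed Sag, log2(signal + 16) of each of the 12392 other genes was regressed on that of Sag with limma, and p-values were adjusted over all of them by the Benjamini-Hochberg method. Calls were made where the adjusted p lay under 0.05. The test called 16 genes in the direction of Sag, 0.129% of those tested, and 0 against it, and 11 of the 16 were members. The slope of a called member ran from 0.45 (Guca1a) to 1.21 (Gngt1) in log2 units per log2 unit of Sag. Permutation p-values of r are given beside limma's for the 31 members and are not adjusted. With group as a covariate the counts were again 16 genes and 11 members, and without elevated array 1 they were 17 genes and 10 members. With Prph2, a dim gene, in place of Sag, 0 genes and 0 members were called (lowest limma adjusted p 0.999865). A block for replicate number also left 0 genes and 0 members called (lowest limma adjusted p 0.0622). Slopes under that block are given further below.

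Gngt1 had a slope of 1.21 with a 95% confidence interval of 1.07 to 1.36, a Pearson r of 0.99 and a Spearman rho of 0.96, and limma's adjusted p was 2.2e-05. Gnat1 had a slope of 1.04 (0.89 to 1.2), an r of 0.98 and an adjusted p of 7.49e-05 from limma. For both, the two-sided permutation p of r was 1e-05, the smallest that 100000 permutations can give. The other rod genes called were Pde6g (r = 0.96, limma adjusted p = 0.00056), Pde6b (r = 0.96, limma adjusted p = 0.000721) and Nrl (r = 0.96, limma adjusted p = 0.000721). Cngb1 missed the threshold with an r of 0.89 and a limma adjusted p of 0.0743, and without control array 4 its adjusted p was 0.00533. Pde6a had an r of 0.73 with a permutation p of 0.0131, and Cnga1 an r of 0.33 with a permutation p of 0.379. Neither passed limma's test, with an adjusted p of 0.999583 for both.

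Control array 4 and elevated array 4 lay farthest from the median of Sag, both at its upper end. Without both, limma called 4 genes, of which 2 were members, Gngt1 and Gnat1. The correlations themselves stayed high over the 8 remaining arrays. Gngt1 kept an r of 0.97 (exact permutation p = 0.000223), Gnat1 0.96 (exact permutation p = 0.000397), Pde6b 0.93 (exact permutation p = 0.000769) and Nrl 0.91 (exact permutation p = 0.00107). Pde6g had an r of 0.92 there (exact permutation p = 0.00124) and Cngb1 one of 0.93 (exact permutation p = 0.00161). For Pde6a r fell to 0.31 (exact permutation p = 0.435). Leaving out the pools with the most Sag also narrows the range of Sag. A fall in r therefore cannot show that a relation rested on those arrays.

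**Figure D2:**
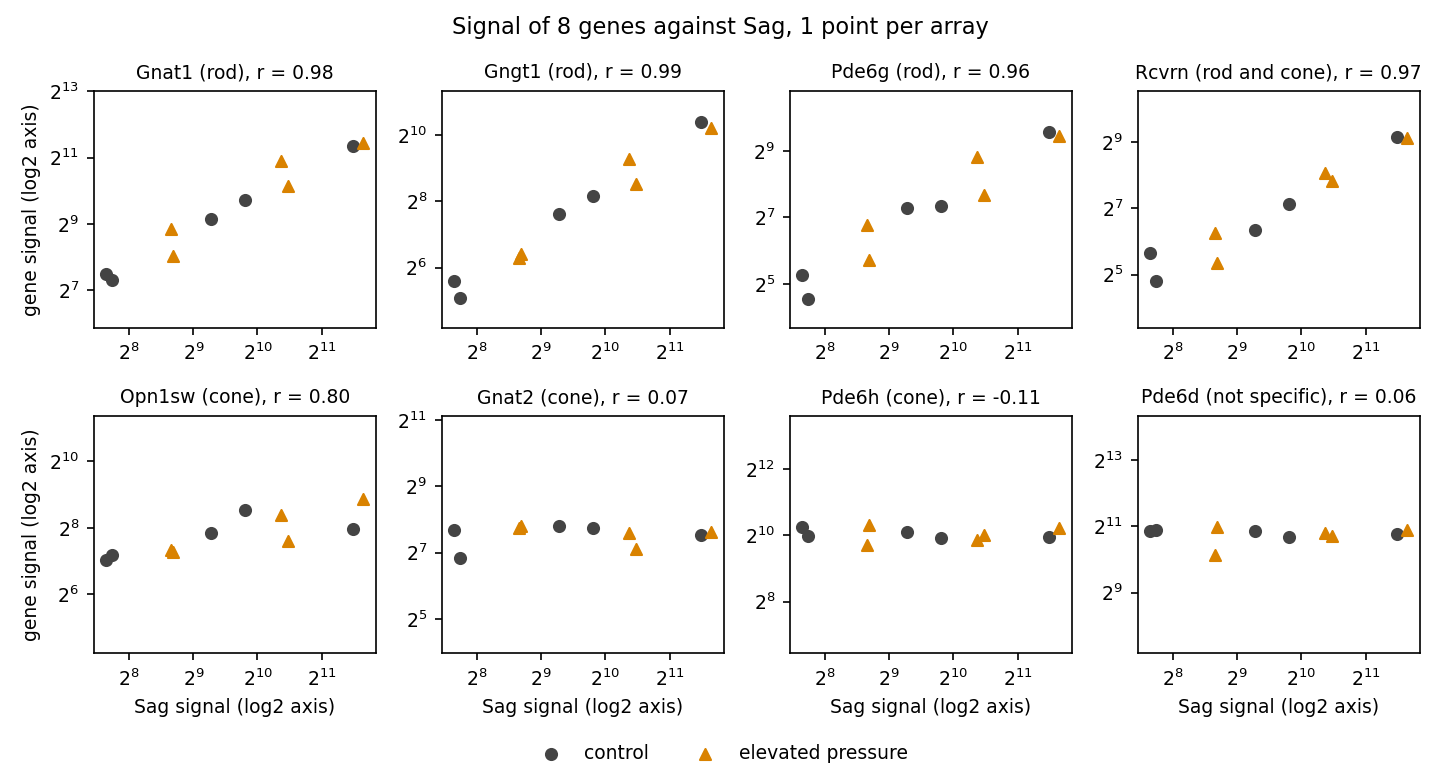
Each panel plots the signal of 1 gene (vertical axis, log2 scale) against that of Sag (horizontal axis, log2 scale), with 1 point per array, circles for the 5 control pools and triangles for the 5 elevated pools; the r in each title is Pearson's on log2(signal + 16). Gnat1, Gngt1, Pde6g and Rcvrn climb along a line in both groups (r of 0.98, 0.99, 0.96 and 0.97), Opn1sw climbs with more scatter (0.80), and Gnat2, Pde6h and Pde6d show no rise with Sag (0.07, -0.11 and 0.06).

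The RefSeq promoter table (assembly GRCm38.p6) holds windows from 250 bases before to 50 bases after a gene's start, and 25 of the 32 measured members were matched to 27 windows. Gnat1, Pde6a, Pde6g, Pde6c, Guca1b, Rp1 and Rcvrn were not matched. Each window was searched on both strands for TAATCC, the core that Crx and related homeodomain proteins bind, and for TGCTGA, which is part of the element that Nrl binds. A window counted once for a motif, however many matches it held. TAATCC was present in 11 of the 27 member windows, or 40.7%, beside 7.06% of the 32851 windows in the table. Among the genes that passed the test with Sag, together with Sag, it was present in 5 of 8 windows, and among the measured members that did not pass, in 6 of 19. TGCTGA was present in 7 of the 27 member windows, or 25.9%, beside 19.5% of all windows. A match describes letters in the window, not binding.

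The 100 bases just before the start are shown for Sag and the 7 matched members that passed the test with it, Gngt1, Aipl1, Crx, Guca1a, Pde6b, Nrl and Pdc, and for the cone genes Gnat2 and Pde6h, which did not pass. They read 5′ to 3′ on the strand of the gene, and capitals mark a motif: GGATTA is TAATCC read on the other strand, and TGCTGA is the Nrl motif. Sag lies on chr1:87803580-87803679 (plus strand), Gngt1 on chr6:3993908-3994007 (plus), Aipl1 on chr11:72037510-72037609 (minus), Crx on chr7:15879956-15880055 (minus), Guca1a on chr17:47400607-47400706 (minus), Pde6b on chr5:108388273-108388372 (plus), Nrl on chr14:55524253-55524352 (minus), Pdc on chr1:150319317-150319416 (plus), Gnat2 on chr3:108092966-108093065 (plus) and Pde6h on chr6:136954423-136954522 (plus).
Sag: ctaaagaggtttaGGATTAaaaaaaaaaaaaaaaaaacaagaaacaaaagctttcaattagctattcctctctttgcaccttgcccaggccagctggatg
Gngt1: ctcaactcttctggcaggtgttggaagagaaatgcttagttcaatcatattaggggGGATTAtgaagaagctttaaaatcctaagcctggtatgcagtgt
Aipl1: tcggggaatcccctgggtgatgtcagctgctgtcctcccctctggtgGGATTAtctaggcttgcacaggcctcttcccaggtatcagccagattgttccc
Crx: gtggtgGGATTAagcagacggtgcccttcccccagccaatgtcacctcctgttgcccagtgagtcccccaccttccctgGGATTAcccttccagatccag
Guca1a: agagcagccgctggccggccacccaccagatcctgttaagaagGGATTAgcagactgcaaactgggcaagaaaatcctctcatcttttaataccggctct
Pde6b: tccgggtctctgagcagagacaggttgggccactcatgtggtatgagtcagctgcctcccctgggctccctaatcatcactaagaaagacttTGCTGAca
Nrl: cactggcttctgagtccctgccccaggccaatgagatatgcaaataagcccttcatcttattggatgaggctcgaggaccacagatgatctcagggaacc
Pdc: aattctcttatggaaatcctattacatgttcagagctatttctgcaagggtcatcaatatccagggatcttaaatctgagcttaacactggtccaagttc
Gnat2: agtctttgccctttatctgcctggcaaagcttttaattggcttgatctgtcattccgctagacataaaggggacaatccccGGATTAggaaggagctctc
Pde6h: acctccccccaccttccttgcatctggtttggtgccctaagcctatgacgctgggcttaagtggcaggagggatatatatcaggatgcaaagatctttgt
Crx carries the TAATCC core at 2 places in its own stretch, and the stretches of Nrl and Pdc, both called, carry neither motif. The cone gene Gnat2, which did not follow Sag, carries it too.

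Of the 14 measured genes that rods and cones share, 6 followed Sag. Rcvrn, recoverin, a calcium sensor that holds back the opsin kinase Grk1, read 82.1, 50.3, 27.8, 568 and 139 in the control pools and 75.8, 266, 40.7, 559.8 and 226 in the elevated pools. Pdc, phosducin, which binds the beta and gamma subunits of transducin, read 477, 183, 77.2, 1979 and 464 in the control pools and 302, 975, 202, 1641 and 619 in the elevated pools. For both, control pool 3 was the lowest and pool 4 of each group the highest, and the groups overlapped. Rcvrn had an r of 0.97 (limma adjusted p = 0.000232) and Pdc an r of 0.96 (limma adjusted p = 0.000721), and over the 8 arrays without pool 4 of either group r was 0.94 (exact permutation p = 0.00151) and 0.92 (exact permutation p = 0.00102).

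Rp1, a microtubule protein of the outer segment axoneme, read 53.7, 23.8, 17.1, 199.6 and 58.6 in the control pools and 17.7, 84.9, 41.9, 191 and 70.2 in the elevated pools. Guca1a, a calcium-sensing activator of guanylate cyclase, read 347, 302, 267, 1009.9 and 436 in the control pools and 285, 522, 378, 945 and 519 in the elevated pools. Both were highest in pool 4 of each group and overlapped between groups, with a range of 11.7-fold for Rp1 and 3.78-fold for Guca1a. Their r with Sag was 0.96 (limma adjusted p = 0.000992) and 0.95 (limma adjusted p = 0.00287).

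Aipl1, a chaperone needed for PDE6, read 68.7, 62.7, 37.7, 358 and 111 in the control pools and 81.5, 184, 47.1, 419 and 107 in the elevated pools. Crx, the transcription factor of rods and cones, read 139, 30.4, 19.1, 185 and 61.2 in the control pools and 37.6, 106, 29.3, 244 and 78.7 in the elevated pools. Both followed the order of Sag on most arrays, except that Crx in control pool 1 was close to control pool 4. These were the least secure of the calls. Aipl1 had an r of 0.92 and a limma adjusted p of 0.00878, which was 0.0663, 0.0774 and 0.101 without control array 3, control array 4 and elevated array 4. Crx had an r of 0.90 and a limma adjusted p of 0.033, and it kept the call only without control array 1 or without elevated array 5, with adjusted p between 0.056 and 0.344 when any 1 of the other 8 arrays was left out. With the mean over probe sets the adjusted p was 0.0739 for Aipl1 and 0.155 for Crx, and with a pseudocount of 64 it was 0.054 for Crx. The second probe set of each gene had a lower r with Sag, 0.55 for Aipl1 and 0.54 for Crx.

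The other 8 genes of rods and cones alike did not pass. Tulp1, which takes part in protein transport to the outer segment, had an r of 0.80 (permutation p = 0.00541, limma adjusted p = 0.624) and signals of 17.0 to 55.9. Guca1b, a further cyclase activator, had an r of 0.79 (permutation p = 0.00867, limma adjusted p = 0.624) and signals of 62.1 to 264, high in control pools 4 and 5 and in elevated pools 2 and 4. Without pool 4 of both groups these fell to 0.51 for Tulp1 (exact permutation p = 0.203) and 0.62 for Guca1b (exact permutation p = 0.0952). With the narrower range of Sag, these falls cannot show that either relation rested on those pools.

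Rom1, a membrane protein of the disc rim, read 1364, 1096, 1018, 1779 and 1218 in the control pools and 1665, 1416, 1127, 1457 and 1434 in the elevated pools, with an r of 0.70 (permutation p = 0.0257). Abca4, the transporter that clears retinal derivatives from the discs, read 1129.6, 1039.7, 958, 1199.97 and 1046 in the control pools and 1574, 1324, 777, 1374 and 1451 in the elevated pools, with an r of 0.49 (permutation p = 0.149). In both the elevated pool highest in signal was pool 1, which held little Sag and is the array that stood apart. Without that array the slope on Sag was 0.16 for Rom1 in place of 0.13, with an r of 0.91, and 0.14 for Abca4 in place of 0.11, with an r of 0.72, and its part in these values was otherwise not tested. Rdh12, a retinal reductase of the inner segment, ranged from 173 to 407 and had an r of 0.58 that went to -0.02 without pool 4 of both groups. Prph2, the partner of Rom1 at the disc rim, stayed between 15.4 and 47.1, with an r of 0.55. Grk1, the opsin kinase, stayed between 19.2 and 32.5 with an r of 0.42. Without pool 4 of both groups its r was 0.74 (exact permutation p = 0.0409). Gucy2e, a guanylate cyclase of the outer segment, stayed between 7.85 and 56.4 with an r of 0.18. Limma's adjusted p was 0.999583 for Rom1, Abca4, Rdh12, Prph2, Grk1 and Gucy2e.

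**Figure D3:**
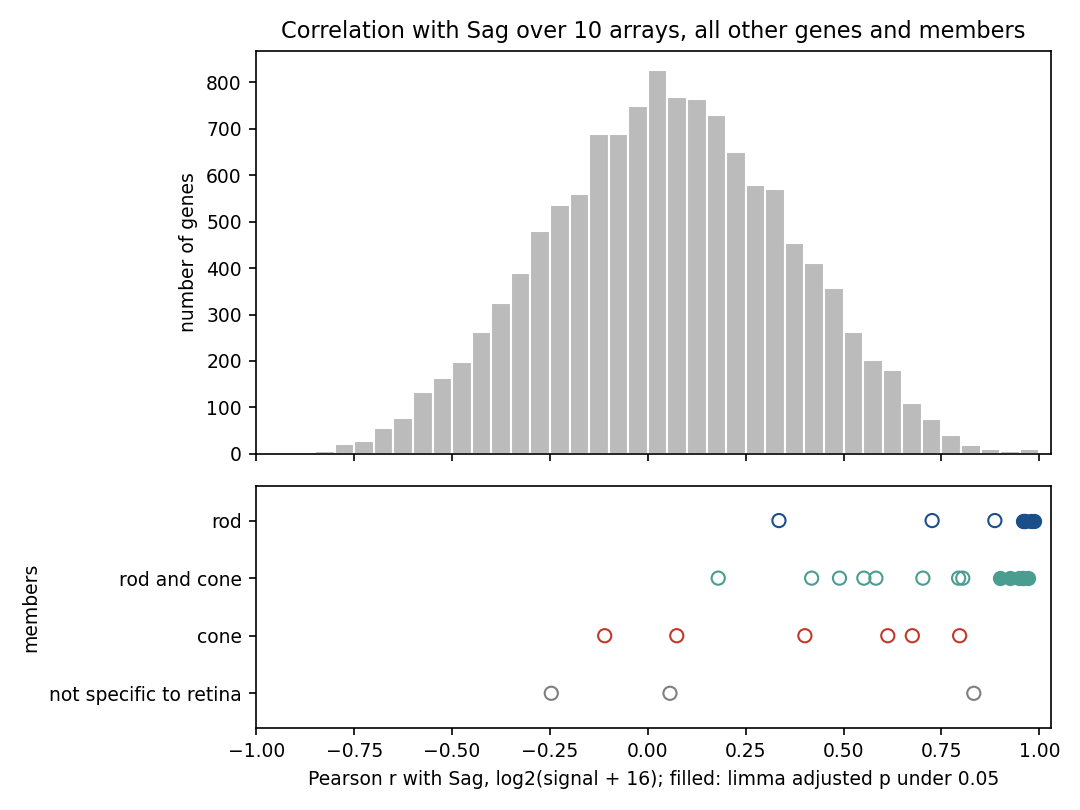
The upper panel counts all 12392 genes by their Pearson r with Sag over 10 arrays, and the lower panel shows the 31 other measured members by kind, filled where limma's adjusted p was under 0.05. The 11 filled points lie above 0.9, where 18 genes of the whole table lie, and they are 5 rod genes and 6 genes of rods and cones; the cone genes run from -0.11 to 0.80.

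None of the 6 cone genes passed the test with Sag. Opn1sw, the short-wavelength cone opsin, came closest: it read 228, 131, 146, 248.9 and 371 in the control pools and 159.7, 331, 154, 469.6 and 193 in the elevated pools. Elevated pool 4 was its highest, control pool 5 its next, and the groups overlapped. Its r was 0.80 (permutation p = 0.00687) and its limma adjusted p 0.624, and over 8 arrays without pool 4 of both groups r was 0.77 (exact permutation p = 0.029). Its slope on Sag was 0.34, with a 95% confidence interval of 0.16 to 0.52. That interval lay below those of Gngt1, Gnat1 and Pde6g. It overlapped those of the called genes Guca1a (0.34 to 0.56), Crx (0.43 to 0.86), Aipl1 (0.49 to 0.88) and Pde6b (0.51 to 0.77). A dimmer probe set of Opn1sw had an r of 0.37 with Sag.

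Opn1mw, the medium-wavelength cone opsin, read 61.4, 66.8, 54.5, 110.5 and 47.7 in the control pools and 94.4, 88.7, 47.7, 91.7 and 83.5 in the elevated pools, with an r of 0.61 (permutation p = 0.0635). Pde6c, the catalytic subunit of cone phosphodiesterase, lay between 4.74 and 69.2 with an r of 0.68 (permutation p = 0.0223), which was 0.40 without pool 4 of both groups (exact permutation p = 0.367). Arr3, cone arrestin, lay between 22.2 and 62.4 with an r of 0.40 (permutation p = 0.247). Opn1mw was highest in control pool 4 and Pde6c in elevated pool 4, which were the pools with the most Sag. Arr3 was highest in elevated pool 3 and next highest in control pool 4, at 57.85.

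Gnat2, the alpha subunit of cone transducin, read 225, 207, 114, 186 and 215 in the control pools and 214, 193, 224, 195 and 139 in the elevated pools. Pde6h, the inhibitory subunit of cone phosphodiesterase, read 1093, 1212, 1016, 984 and 969 in the control pools and 829, 924, 1267, 1186 and 1023 in the elevated pools. Gnat2 in pool 4 of each group, where Gnat1 was highest, lay within the range of its other pools, and Pde6h was low in control pool 4 but high in elevated pool 4, unlike Pde6g, which was high in both. The r with Sag was 0.07 for Gnat2 (permutation p = 0.844) and -0.11 for Pde6h (permutation p = 0.757). The slope of Gnat2 had a 95% confidence interval of -0.13 to 0.16, against 0.89 to 1.2 for Gnat1, and that of Pde6h one of -0.12 to 0.09, against 0.84 to 1.25 for Pde6g. For Pde6h the choice of probe set mattered, since a dimmer probe set of the gene had an r of 0.74 with Sag.

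Single cone genes were mostly weakly correlated with each other. Over the 15 pairs of cone genes the median r was 0.15, from -0.41 (Opn1mw with Pde6h) to 0.65 (Opn1sw with Pde6c). Over the 36 pairs of rod genes the median r was 0.80, and over the 54 pairs of a rod with a cone gene 0.40. All of these pairs share the same 10 arrays, and the medians are a description. Pde6c and Arr3 were dim, and Pde6h entered with its brighter probe set, which was flat against Sag. As a mean, the cone genes were lowest in control pools 2 and 3 (-0.31 and -0.25 on the log2 scale). Their mean was highest in pool 4 of the elevated and control groups (0.47 and 0.22). The rod mean was lowest and highest in the same pools.

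Genes not specific to the retina were mostly flat. Gnb1, a G protein beta subunit of many cell types that also serves rod transducin, ranged from 8713 (elevated pool 1) to 11861 (control pool 1) and had an r of -0.25 with Sag (permutation p = 0.495). Pde6d, a carrier of prenylated proteins, ranged from 1117 (elevated pool 1) to 2012 (elevated pool 3) and had an r of 0.06 (permutation p = 0.891). Their lowest pool was the array that stood apart. Without that array the slope of Pde6d on Sag was -0.028 in place of 0.0096. The slope of Gnb1 stayed between -0.039 and -0.0083 whichever 1 array was left out. Unc119, a carrier of acylated proteins including transducin alpha that is abundant in photoreceptors, behaved otherwise. It read 811, 618, 535, 848 and 654 in the control pools and 695, 697, 673, 942 and 740 in the elevated pools, with pool 4 of each group on top, but over a range of only 1.76-fold. Its r was 0.83 (permutation p = 0.00273), its limma adjusted p 0.715, and r was 0.64 without pool 4 of both groups (exact permutation p = 0.0816).

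By its median, the spread between pools of a group followed the same division, but single genes of different kinds overlapped. The within-group SD of log2(signal + 16) had a median of 1.31 over the 9 rod genes and 0.58 over the 14 genes of rods and cones. It was 0.37 over the 6 cone genes and 0.24 over the 3 others, beside 0.21 over all genes. Single rod genes ran from 0.21 to 1.78, genes of rods and cones from 0.15 to 1.44 and cone genes from 0.20 to 0.62. The SD was above 0.5 for 15 of the 32 members, and for 6.31% of all genes. Of the 32 members, 11 lay in the top 1% of all genes by this SD, 22 were highest in pool 4 of 1 of the groups, 21 were lowest in control pool 2 or 3, and 5 (Cnga1, Pde6h, Rdh12, Gnb1 and Pde6d) were lowest in elevated pool 1.

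On each array the mean deviation of a kind of gene from its 10-array mean shows how far the kinds parted. The rod mean ran from -1.31 in control pool 3 to 1.45 in elevated pool 4 on the log2 scale. The cone mean ran from -0.31 in control pool 2 to 0.47 in elevated pool 4, and the mean of the genes not specific to the retina from -0.28 in elevated pool 1 to 0.19 in elevated pool 4. The rod mean includes Sag and the rod genes called with it, so a fall of the cone mean minus the rod mean with rising Sag is in part built in. That difference was highest in the pools with little Sag, at 1.06 in control pool 3 and 0.93 in control pool 2. It was lowest in control pool 4, at -1.15, and in elevated pool 4, at -0.98.

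**Figure D4:**
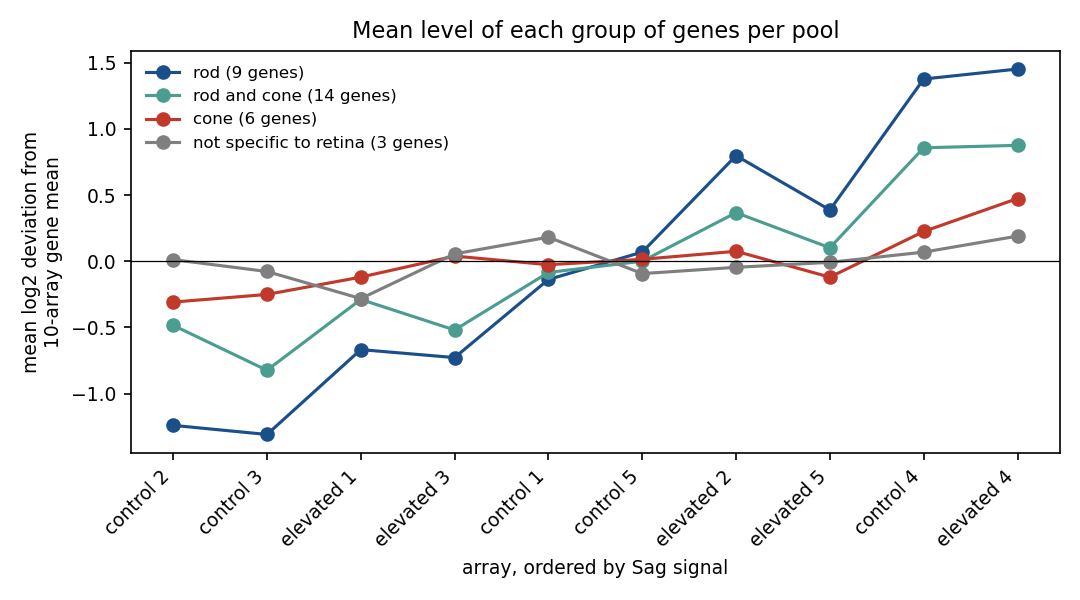
The vertical axis is the mean, over the genes of a kind, of log2(signal + 16) minus the gene's 10-array mean. The horizontal axis lists the 10 arrays by rising Sag signal. Lines only join points of a kind, and Sag itself is part of the rod line. The rod line climbs from -1.24 to 1.45, the line of genes of rods and cones less steeply, and the cone line from -0.31 to 0.47; the grey line of genes not specific to the retina stays within 0.5 of 0.

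The study's own comparison asks what differs in the nerve head 3 days after the pressure was raised. With limma on log2(signal + 16), elevated pressure minus control, 0 of the 12393 genes passed an adjusted p under 0.05, so 0% were called and 0 of the 32 members. Before adjustment 492 genes, or 3.97%, had a p under 0.05, and none of them was a member. The groups did not overlap for 78 genes, 0.629% of all, and overlapped for every one of the 32 members. The difference was above 0 for 24 of the 32 members, beside 47.3% of all genes, and its median was 0.21 over the members and -0.01 over all genes; since the members that follow Sag move as a block, these 24 are not separate measurements.

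The mean signal of Gnat1 was 873 ± 1010.1 (SD, n = 5) over the control pools and 1303 ± 1036 (SD, n = 5) over the elevated pools. Its log2 difference was 0.83, with a 95% confidence interval of -0.98 to 2.65 and a limma adjusted p of 0.849. Sag had 963 ± 1114 (SD, n = 5) and 1351 ± 1141 (SD, n = 5), a difference of 0.75 with an interval of -0.96 to 2.45. In both the SD was near or above the mean, and the difference between groups lay far inside the spread between pools. Without control array 4 the difference was 1.40 for Gnat1 and 1.31 for Sag, and without control array 3 it was 0.42 for Gnat1. For Sag the lowest value was 0.33, without elevated array 4. Neither was called under any of these, and without elevated array 1 the differences were 1.09 and 1.07.

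Intervals were narrow for some of the members that did not pass the test with Sag and wide for others. Pde6h had a difference of -0.02 (95% confidence interval -0.30 to 0.25), Gnat2 one of 0.04 (-0.35 to 0.44), Rom1 one of 0.15 (-0.19 to 0.49) and Gnb1 one of -0.12 (-0.32 to 0.07). Cngb1, by contrast, with an r of 0.89 with Sag, had a difference of 0.59 (-0.19 to 1.37). Opn1sw (r = 0.80) had one of 0.16 (-0.59 to 0.92) and Guca1b (r = 0.79) one of -0.03 (-0.88 to 0.81). These intervals were about as wide as that of the called Guca1a, at 0.22 (-0.61 to 1.06). The interval lay within a 2-fold change in either direction for 19 of the 32 members, beside 95.5% of all genes. For the rest, among them Gnat1, Gngt1, Sag, Nrl and Rcvrn, a change of more than 2-fold lay inside the interval.

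**Figure D5:**
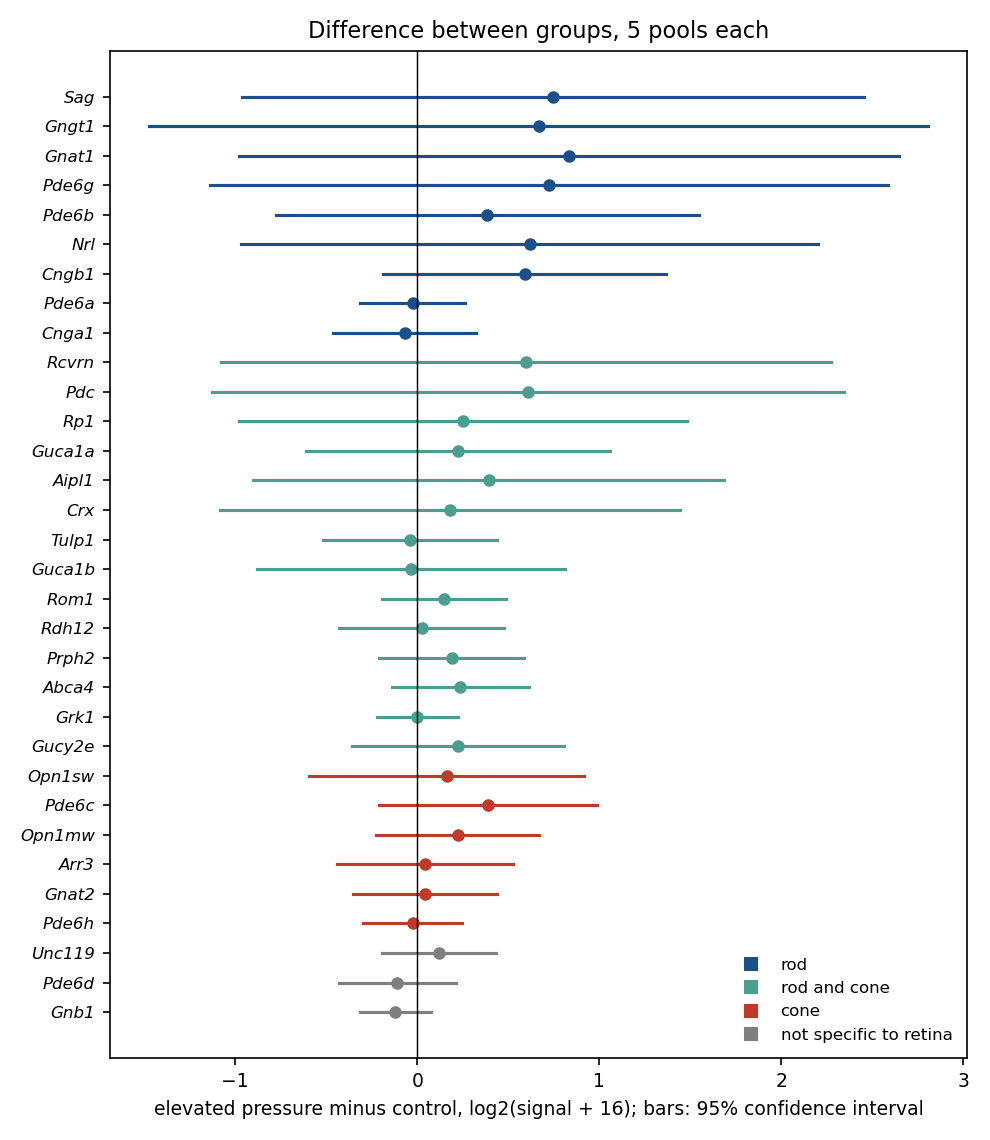
Points give the difference of the group means of log2(signal + 16), elevated pressure minus control, 5 pools each, and bars give limma's 95% confidence interval. Every interval includes 0; the intervals of Gngt1, Gnat1, Pde6g, Sag and the other genes that follow Sag are several times as wide as those of Gnb1, Pde6h and Grk1.

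Lists of other cell types were tested against Sag in the same fit. Of 22 measured further photoreceptor genes, 3 were called: Rbp3, the retinoid carrier between photoreceptors and pigment epithelium (r = 0.95, limma adjusted p = 0.0014), Cplx4, a complexin of photoreceptor synapses (r = 0.95, limma adjusted p = 0.00233), and Neurod1, a transcription factor of photoreceptors and other retinal neurons (r = 0.92, limma adjusted p = 0.00872). Mpp4, a scaffold of photoreceptor terminals, had an r of 0.89 and a limma adjusted p of 0.0869. The summed signal of these 22 genes ran from 6733 to 10527 in the control pools and from 5380.1 to 11127 in the elevated pools. The remaining 2 called genes, Rtbdn (r = 0.99) and Kcnj14 (r = 0.97), are on no list and are named after their values were seen.

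No gene of the other lists was called with Sag by limma. The median r was 0.05 over 10 bipolar cell genes, 0.43 over 12 amacrine and horizontal cell genes, 0.10 over 6 Müller cell genes, 0.27 over 12 ganglion cell genes, 0.25 over 14 pigment epithelium genes, -0.17 over 9 astrocyte genes and -0.14 over 10 oligodendrocyte genes, beside 0.05 over all genes. Gad1, which makes GABA in amacrine and horizontal cells, read 491 in control pool 1, 365 in control pool 4 and 498 in elevated pool 4, and 33.9 in control pool 2. Tyrp1, a pigment cell gene, was highest in control pool 1, at 8349, and lowest in control pool 2, at 2263. Control pool 2 was thus low for Sag, Gad1 and Tyrp1 alike, whereas control pool 1 was high for Gad1 and Tyrp1 and intermediate for Sag. Other genes with the smallest p on these lists were mixed. Tfap2a, Dct and Tyr were also lowest in control pool 2. Slc32a1 was lowest in elevated pool 1 (76.6), Calb1 in elevated pool 3 (59.5) and Rdh5 in control pool 5 (912).

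The summed signal of the 10 bipolar genes ran from 3104 to 5041 in the control pools and from 3212 to 4323 in the elevated pools, and that of the 12 amacrine and horizontal genes from 6308 to 9808 and from 5989.6 to 9508. For the 6 Müller cell genes the sums ran from 26305 to 30958 in the control pools and from 25656 to 28261 in the elevated pools. The 14 pigment epithelium genes summed to between 27692 and 61595 in the control pools and between 31285 and 48212 in the elevated pools. The sum of the 9 rod genes ran from 657 to 8666 and from 1152 to 8946, a wider relative range than any of these lists. Such sums are set mostly by the brightest genes of a list and can hide a wide range of dimmer ones. Over the 10 arrays Gad1 ran from 33.9 to 498, Tyr from 168 to 1705 and Vsx1, a bipolar gene, from 11.7 to 141. The part of retina or pigmented tissue in the pools was not tested.

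Where a member had several probe sets, they did not always move together. Of 4 probe sets of Gngt1, 3 had an r with Sag of 0.98 to 0.99 and a difference between groups of 0.55 to 0.73, and a dim one had an r of -0.41 and a difference of -0.18. A second probe set of Pde6g had an r of 0.92 and a difference of 0.52. The second probe set of Rp1, with signals of 15.5 to 23.7, had an r of -0.02, and that of Guca1b an r of -0.30. For Opn1sw, Crx, Aipl1 and Rp1 the second probe set had a difference between groups of the opposite sign, at -0.33, -0.19, -0.04 and -0.02. For Pde6h it was 0.13 in place of -0.02, and the 2 other probe sets of Gnb1 were at -0.38 (signals of 528 to 1766) and, for a dim one, at 0.34.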

How the data were processed

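RNA from 10 pools of 2 optic nerve heads was measured on 10 arrays. The authors deposited probe set intensity values on a linear scale for 22690 probe sets, and how probe sets were summarised, background-corrected and normalized is not given in the sources used here. Per the labels' protocols, 30 ng of total RNA per pool was amplified with the Ovation system and labelled with biotin, and RNA integrity numbers were above 9.1. Amplification of small inputs and unknown background handling can compress differences of dim genes.

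Apart from 64 controls, 20380 probe sets carried 1 gene symbol in the platform annotation, 691 several and 1555 none. Of the 20380, 20351 matched a RefSeq Entrez identifier and 0 symbols changed. The brightest probe set per gene left 12393 genes. Values were taken as log2(signal + 16), so folds of dim genes are understated. Comparisons used limma 3.58.1 (lmFit, eBayes) in R 4.3.3 with Benjamini-Hochberg adjustment over all genes, on all 10 arrays without covariates, and no filter on dim genes. Correlations used 100000 two-sided permutations, or an exact two-sided test over 8 arrays. Tables and plots used Python 3.11.15, NumPy 2.4.6, pandas 2.3.3 and Matplotlib 3.10.9.

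All 34 members are named by rule, and of the other lists the up to 4 genes with the smallest p in the Sag test, as counts or by name. The members, the lists and Sag as the gene tested against were chosen with earlier results of these data known. The labels do not tie equal replicate numbers to the same mice. Deviations of same-numbered pools 1 to 5 correlated at -0.02, 0.21, -0.08, 0.18 and -0.06. The mean r with other numbers was -0.002, -0.036, 0.036, -0.044 and -0.011. Pools 2 and 4 stood above those means and pools 1, 3 and 5 below. Pairing was therefore not settled, and the main fits used no block. If pools are not independent, within a group or between the groups that shared mice, p-values measure only the spread between these pools. Simulated data (5 runs, 12393 genes, 200 changed, drawn at random) had independent noise per gene and array. Limma recovered 83.5% of genes given a group difference of 1 log2 unit, with 10.2 others called per run. Of genes with a slope of 0.5 on Sag it recovered 93.8%, with 10.4 others per run. These shares hold for genes drawn from the whole table, where the median within-group SD was 0.21. They do not carry over to the rod genes, whose median was 1.31, nor to genes that move as a block. Alternatives were quantile normalization, equal array medians, pseudocounts of 1 and 64, leaving out the dimmest 25% of genes, the mean over probe sets, a trended robust variance, the replicate block, Gnat1 or Prph2 in place of Sag, group as a covariate, and leaving out each array or the 2 farthest from the median of Sag. Promoter windows are RefSeq's, assembly GRCm38.p6.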

Additional observations from a re-analysis of the deposited data

Results flagged for a closer look

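In groups of 5 arrays, 8 of 64 groups (32 members in 2 groups) held 1 array far from the other 4, by a gap test that chance passes in about 1 of 20 groups, or 3.2 of 64. Cnga1, the rod channel's alpha subunit, read 64.03 on elevated array 1, where the others read 121 to 153. Pde6a, a rod phosphodiesterase subunit, read 25.5 on control array 4, where the others read 11.1 to 14.4. All signals of Pde6a are dim. Gnat2, cone transducin alpha, read 114 on control array 3, with the others at 186 to 225, and Gucy2e, a guanylate cyclase, read 7.85 on the same array, with the others at 31.2 to 45.4. Control array 3 was also the lowest for Gnat1, Gngt1, Cngb1 and Pde6g.

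Elevated array 3 was low for the medium-wavelength opsin Opn1mw, at 47.7 beside 83.5 to 94.4, and for the transporter Abca4, at 777 beside 1324 to 1574. Elevated array 4, which held the most Sag, was high for the cone phosphodiesterase gene Pde6c, at 69.2 beside 22.2 to 28.7, and for Unc119, at 942 beside 673 to 740. The steeply varying rod genes Sag, Gnat1, Gngt1, Pde6g and Nrl were not among these, since their 5 pools were spread over the whole range.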

How the results depend on the processing

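Under quantile normalization, equal array medians, a pseudocount of 1 or 64, no dim genes, the mean over probe sets, a trended variance, Gnat1 in place of Sag, and group as a covariate, 13 to 18 genes and 9 to 11 members followed Sag. Leaving out 1 array also gave 13 to 18 genes and 9 to 11 members. With the replicate block, 0 genes and 0 members were called (lowest limma adjusted p 0.0622), although slopes of the called rod genes stayed about as large (1.14 for Gnat1, 1.24 for Gngt1, 1.09 for Pde6g, 1.026 for Nrl, 0.69 for Pde6b), while those of Aipl1 and Guca1a were lower (0.42 and 0.32). Calls numbered 0 and 0 with the dim gene Prph2 in place of Sag, and 4 and 2 without the 2 arrays farthest from the median of Sag. The cause was not tested, except that the block leaves fewer degrees of freedom and the last has fewer arrays and a narrower range of Sag. The pressure comparison called 0 genes in every alternative run, the replicate block included (lowest limma adjusted p 0.533 over all genes and 0.888 over the members). The median SD of the genes not specific to the retina ran from 0.116 to 0.252 when 1 array was left out, lowest without elevated array 1.

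Signs near 0 turned. Pressure differences became 0.0085 for Pde6h and 0.00846 for Guca1b under quantile normalization, 0.012 for Grk1 with equal medians and 0.000333 for Grk1 with a pseudocount of 64. With the mean over probe sets they were 0.0544 for Pde6h, -0.0841 for Opn1sw and -0.00327 for Crx. Slopes on Sag became -0.0052 for Pde6d with equal medians and -0.0082 with Gnat1 in place of Sag, 0.155 for Pde6h and 0.0356 for Gnb1 with the mean over probe sets. With the replicate block they were -0.00159 for Pde6a, -0.00727 for Rdh12 and -0.0618 for Gucy2e, and without the 2 farthest arrays -0.0188 for Arr3, -0.00363 for Rdh12 and -0.0243 for Pde6d.

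Leaving out 1 array turned pressure differences of 16 members, none called. The ranges were -0.16 to 0.11 for Cnga1, -0.0841 to 0.0819 for Pde6a, -0.11 to 0.19 for Arr3, -0.11 to 0.15 for Gnat2, -0.0969 to 0.0539 for Pde6h, -0.0724 to 0.35 for Opn1sw, -0.00293 to 0.83 for Aipl1, -0.19 to 0.50 for Crx and -0.0094 to 0.53 for Guca1a. They were -0.24 to 0.21 for Guca1b, -0.088 to 0.67 for Rp1, -0.20 to 0.088 for Tulp1, -0.13 to 0.16 for Rdh12, -0.0342 to 0.0592 for Grk1, -0.0214 to 0.35 for Gucy2e and -0.18 to 0.0317 for Pde6d. Slopes on Sag ran from -0.0723 to 0.0397 for Gnat2, -0.0525 to 0.0138 for Pde6h, -0.0809 to 0.11 for Gucy2e and -0.028 to 0.0316 for Pde6d.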
